A study of Mus musculus with 6 samples.

Results

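The major urinary protein (Mup) genes and other lipocalin genes were followed in mouse liver after adenoviral delivery of Dyrk1b. A gene was included if its symbol was Mup or Lcn followed by a number, or if it was Ambp, Ptgds, Apod, C8g or Obp2a. This rule uses names and no measured value, but the members were chosen with earlier results of these data known. The rule took 37 of the 22274 genes in the deposited table, namely 22 Mup genes, 10 Lcn genes and the 5 genes listed by name. Livers came from C57 mice, and all animals had received an adenovirus. In 3 samples it carried mouse Dyrk1b (Ad-Dyrk1b), and in 3 it was the control virus Ad-EGFP. The mice's age and sex, the viral dose and the time after infection are not stated in the labels. Nor do the labels state that each sample is a different animal, and p-values therefore measure only how much these samples vary, which may be technical.

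Lipocalins are small secreted proteins folded into a barrel around a pocket that holds a hydrophobic ligand. Major urinary proteins are made in the liver, pass through the blood into urine and carry volatile pheromones. In mice their hepatic transcription is known to be higher in males and to depend on the pulses of growth hormone, acting through STAT5. The remaining lipocalins have separate roles. Lcn2 binds bacterial siderophores, Ambp encodes the precursor of alpha-1-microglobulin and bikunin, C8g is the gamma subunit of complement component C8, and Ptgds is a prostaglandin D2 synthase.

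Dyrk1b, which checks the labels, stood at 62.2, 101 and 96.5 FPKM in the Ad-Dyrk1b libraries and at 3.81, 4.97 and 4.16 FPKM in the Ad-EGFP libraries. Its log2 fold change was 4.49 ± 0.24 (SE, edgeR adjusted p = 1.33e-05). The libraries held 17326516 to 20024888 counts each. FPKM scales a count to the gene's length and the library's depth. Log2 fold changes below are Ad-Dyrk1b over Ad-EGFP, are followed by the standard error, and come from edgeR's quasi-likelihood fit over 13201 tested genes.

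All 22 Mup genes lie together on chromosome 4, from 59956804 to 62150863 (mm10), with no other row of the table between them. By the coding sequences of GENCODE M21 they fell into 1 group of 16 near-identical copies, which shared 98.3 to 99.8% of aligned coding bases with each other, and 6 other copies, Mup3, Mup4, Mup5, Mup6, Mup20 and Mup21. The other copies shared 83.1 to 91.4% with the group. A stretch of 60 coding bases shows the scale of these differences. Among stretches that align without gaps inside 1 exon of every gene compared, it is where Mup20 and Mup3 together differ most from Mup18. It does not stand for their average divergence. Over the coding sequence, Mup20 shared 91.4% and Mup3 84.5% of aligned bases with Mup18. Capitals mark bases that differ from Mup18 (chr4:61671874-61671933, minus strand). Mup22, Mup19, Mup15 and Mup14 carry the Mup18 letters without a difference. Mup17 (chr4:61593623-61593682, minus strand) has 1 difference, and Mup20 (chr4:62051903-62051962, minus strand) and Mup3 (chr4:62085206-62085265, minus strand) have 6 each.
Mup18: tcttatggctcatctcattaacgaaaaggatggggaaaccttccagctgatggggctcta
Mup17: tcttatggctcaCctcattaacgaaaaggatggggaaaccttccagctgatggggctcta
Mup20: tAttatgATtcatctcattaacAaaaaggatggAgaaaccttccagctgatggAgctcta
Mup3: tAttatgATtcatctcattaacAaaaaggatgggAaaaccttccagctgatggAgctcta

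Because a read from such a stretch fits many copies, the family sums were taken first. Counts over all 22 Mup genes were 207890, 276928 and 170011 in the Ad-Dyrk1b libraries and 72191, 87723 and 74081 in the Ad-EGFP libraries. Every Ad-Dyrk1b library lay above every Ad-EGFP library. As a share of all counts in the library, the family took 1.09, 1.38 and 0.951% in Ad-Dyrk1b livers and 0.402, 0.501 and 0.428% in Ad-EGFP livers. The summed family rose by 1.45 ± 0.17 on the log2 scale, or 2.74-fold (edgeR adjusted p = 0.000161). In whole liver, more cells of a type and more RNA per cell cannot be told apart.

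Both the summed 16 near-identical copies and the summed 6 other copies rose. The near-identical copies together had 66685, 87838 and 43157 counts in Ad-Dyrk1b livers and 9217, 8689 and 7460 in Ad-EGFP livers, a rise of 2.92 ± 0.21 on the log2 scale, or 7.59-fold (edgeR adjusted p = 2.53e-05). The other copies had 141205, 189090 and 126854 counts against 62974, 79034 and 66621, a rise of 1.10 ± 0.16, or 2.15-fold (edgeR adjusted p = 0.000952). Neither sum overlapped between the groups. Near-identical copies made up 32.1, 31.7 and 25.4% of the Mup counts in Ad-Dyrk1b livers and 12.8, 9.91 and 10.1% in Ad-EGFP livers. The groups did not overlap, and the mean share was 10.9 ± 1.61% in Ad-EGFP and 29.7 ± 3.76% in Ad-Dyrk1b livers (SD, n = 3 each; exact permutation test of the share, two-sided p = 0.1, the smallest that 3 against 3 allows). Mup20 alone held 82.1 ± 3.36% of the Mup counts in Ad-EGFP livers and 63.4 ± 3.25% in Ad-Dyrk1b livers (SD, n = 3 each). When the identity threshold was lowered to 90%, Mup20 and 3 others joined the large group, and the sums rose by 1.46 for the 20 copies and by 1.43 for Mup3 and Mup21.

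**Figure D1:**
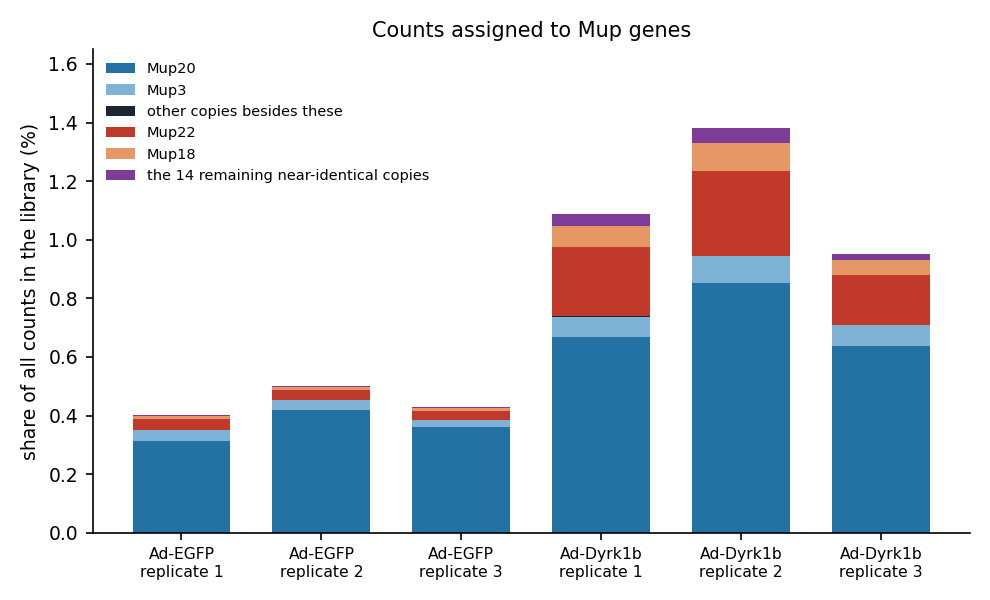
Stacked bars show the share of all counts in each library (percent, y axis) that was assigned to Mup genes, for the 3 Ad-EGFP and 3 Ad-Dyrk1b libraries. Total bar height runs from 0.402 to 0.501% in Ad-EGFP and from 0.951 to 1.38% in Ad-Dyrk1b libraries, and the segments of Mup22, Mup18 and the 14 remaining near-identical copies take a larger part of the Ad-Dyrk1b bars.

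Of the 37 genes, 28 had a count in at least 1 library and 24 passed the filter on low counts. Of these 24, 18 passed the threshold as higher after Ad-Dyrk1b (adjusted p under 0.05, edgeR), against 7.36% of all tested genes called higher and 12.2% called in either direction. These were 17 of the 18 tested Mup genes and Ptgds. No tested gene of the set was lower by edgeR or any other tool run, nor at an unadjusted p under 0.05 (0 genes), against 4.81% of all tested genes called lower. In 19 of the 24, among them 17 Mup genes, every Ad-Dyrk1b library exceeded every Ad-EGFP library in CPM (counts scaled to the library total), against 11.0% of all tested genes. Among all tested genes 88 had a log2 fold change of 2 or more, and 14 of those were Mup genes. The median log2 fold change was 2.90 over the 18 tested Mup genes and -0.00498 over all tested genes. By the adjusted p in the authors' deposited table, 19 of the 37 genes passed 0.05, all of them higher. They were the 18 called here and Mup13, which did not pass the filter.

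The most abundant near-identical copies were Mup22 and Mup18. Mup22 stood at 2746, 3373 and 1964 FPKM in Ad-Dyrk1b livers and at 443, 410 and 365 FPKM in Ad-EGFP livers, and rose by 2.82 ± 0.20 (edgeR adjusted p = 1.43e-05). By mean FPKM it moved from rank 155 to rank 27 among all genes. Mup18 stood at 759, 1029 and 554 FPKM against 109, 126 and 99.4 FPKM, and rose by 2.90 ± 0.23 (edgeR adjusted p = 0.000114). For both copies every Ad-Dyrk1b library lay above the Ad-EGFP range.

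The largest fold changes of the Mup genes were in Mup17, Mup15 and Mup19, which were scarce in Ad-EGFP livers. Mup19 stood at 147, 179 and 69.2 FPKM in Ad-Dyrk1b livers against 4.10, 4.89 and 3.06 FPKM, and rose by 5.21 ± 0.47 (edgeR adjusted p = 0.00263). Mup17 stood at 49.3, 55.5 and 21.7 FPKM against 1.39, 0.97 and 0.37 FPKM, and rose by 5.59 ± 0.56 (edgeR adjusted p = 0.00275). Mup15 stood at 33.9, 39.3 and 15.5 FPKM against 0.63, 1.30 and 0.35 FPKM, and rose by 5.36 ± 0.53 (edgeR adjusted p = 0.00161). These copies ranked between the fifth and the seventh largest log2 fold change of all tested genes. In the Ad-EGFP libraries Mup17 had 23, 16 and 6 counts and Mup15 had 10, 21 and 6, so the sizes of their rises rest on few control reads. Leaving out Ad-EGFP replicate 2 moved Mup15 to 5.97.

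Another 7 near-identical copies rose by 2.28 to 4.06. Mup14 (110, 169 and 51.6 FPKM against 9.31, 9.68 and 9.50 FPKM), Mup16 (76.1, 86.9 and 42.2 against 6.50, 6.84 and 6.20 FPKM) and Mup2 (14.3, 14.3 and 7.02 against 0.92, 0.70 and 0.63 FPKM) rose by 3.66 ± 0.52, 3.48 ± 0.28 and 4.06 ± 0.35. Mup7, Mup9, Mup11 and Mup12 rose by 3.33 ± 0.29, 3.08 ± 0.31, 2.28 ± 0.33 and 2.91 ± 0.62. Their edgeR adjusted p-values ran from 2.64e-05 for Mup2 to 0.0163 for Mup14. Mup12 was the scarcest of them, with 6, 0 and 5 counts in the Ad-EGFP libraries. Its value was 2.33 without Ad-EGFP replicate 2 and 3.44 without Ad-EGFP replicate 1. The call for Mup14 was lost without Ad-Dyrk1b replicate 1 or any single Ad-EGFP library, with an edgeR adjusted p of 0.0547 to 0.0950. Its log2 fold change was 3.16 or more in all alternatives.

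Other scarce copies also gave uncertain values. Mup1 stood at 2.95, 4.45 and 1.10 FPKM against 0.89, 0.52 and 0.51 FPKM and rose by 2.05 ± 0.54 (edgeR adjusted p = 0.0301, from 8 to 15 counts in each Ad-EGFP library). Its call was lost with limma-voom, and in edgeR when replicate 1 or 2 of Ad-Dyrk1b, or replicate 2 or 3 of Ad-EGFP, was left out (adjusted p = 0.0676 to 0.113), and its value fell to 1.46 without Ad-Dyrk1b replicate 2. Mup8 was the tested Mup gene that missed the threshold, at 2.91, 3.77 and 0.63 FPKM against 1.11, 0.97 and 0.57 FPKM, with a change of 1.55 ± 0.58 on that scale (edgeR adjusted p = 0.114). Its Ad-Dyrk1b replicate 3 lay inside the Ad-EGFP range, and without that library the groups no longer overlapped and the gene passed the threshold (edgeR adjusted p = 0.00726). Mup13 had 11, 25 and 6 counts in Ad-Dyrk1b livers and none in Ad-EGFP livers (0, 0 and 0). Against a floor of 3 counts summed over the Ad-EGFP group, that is at least 13.0-fold higher. Mup10 had 6, 0 and 11 counts against 0, 0 and 0, and its groups overlapped. Its summed counts were 5.24-fold higher by the same floor. That floor leaves out the spread among the Ad-Dyrk1b libraries, and a rise of Mup10 was not settled (adjusted p = 0.503 in the authors' deposited test).

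**Figure D2:**
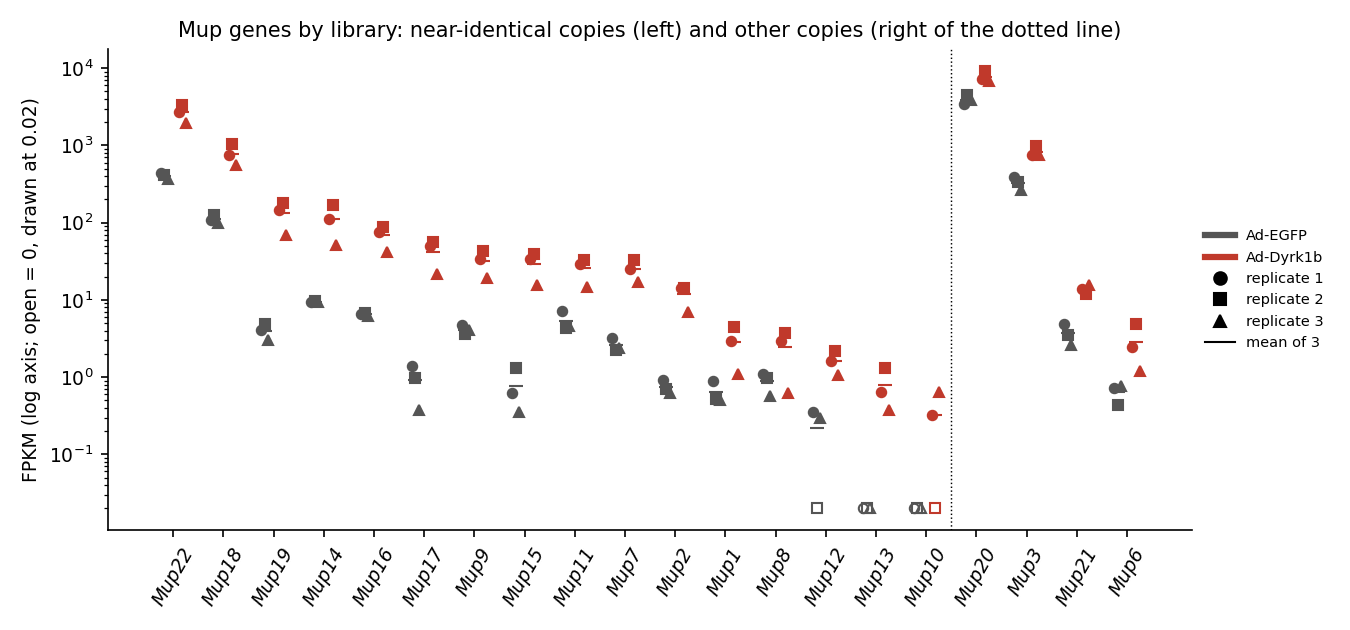
Each point is the FPKM of a library (log axis) for the 20 Mup genes with a count, with shapes for replicates, a line at the mean of 3, and open symbols for a value of 0. Ad-Dyrk1b points lie above the Ad-EGFP points for all plotted genes except Mup8, whose replicate 3 falls among them, and Mup10, whose replicate 2 had no count.

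Copies outside the near-identical group were led by Mup20, which encodes darcin, a pheromone of male urine that attracts females. Mup20 stood at 7207, 9176 and 6879 FPKM in Ad-Dyrk1b livers and at 3392, 4530 and 3880 FPKM in Ad-EGFP livers, and rose by 1.07 ± 0.16 (edgeR adjusted p = 0.00120). It had the highest mean FPKM of the set in both groups. Mup3 stood at 746, 987 and 754 FPKM against 388, 335 and 262 FPKM and rose by 1.42 ± 0.18 (edgeR adjusted p = 0.000694). Mup21 stood at 13.9, 12.0 and 15.5 FPKM against 4.94, 3.55 and 2.64 FPKM and rose by 1.97 ± 0.24 (edgeR adjusted p = 0.000330). Ad-Dyrk1b and Ad-EGFP libraries did not overlap for any of these 3 genes. Mup6 was scarce, at 2.43, 4.85 and 1.21 FPKM against 0.72, 0.43 and 0.76 FPKM, and rose by 2.39 ± 0.53 (edgeR adjusted p = 0.0138). Its value was 1.70 without Ad-Dyrk1b replicate 2, and its call was lost without Ad-EGFP replicate 2 (edgeR adjusted p = 0.0572) or replicate 3 (edgeR adjusted p = 0.0538). Mup4 and Mup5 had 0 counts in all 6 libraries.

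**Figure D3:**
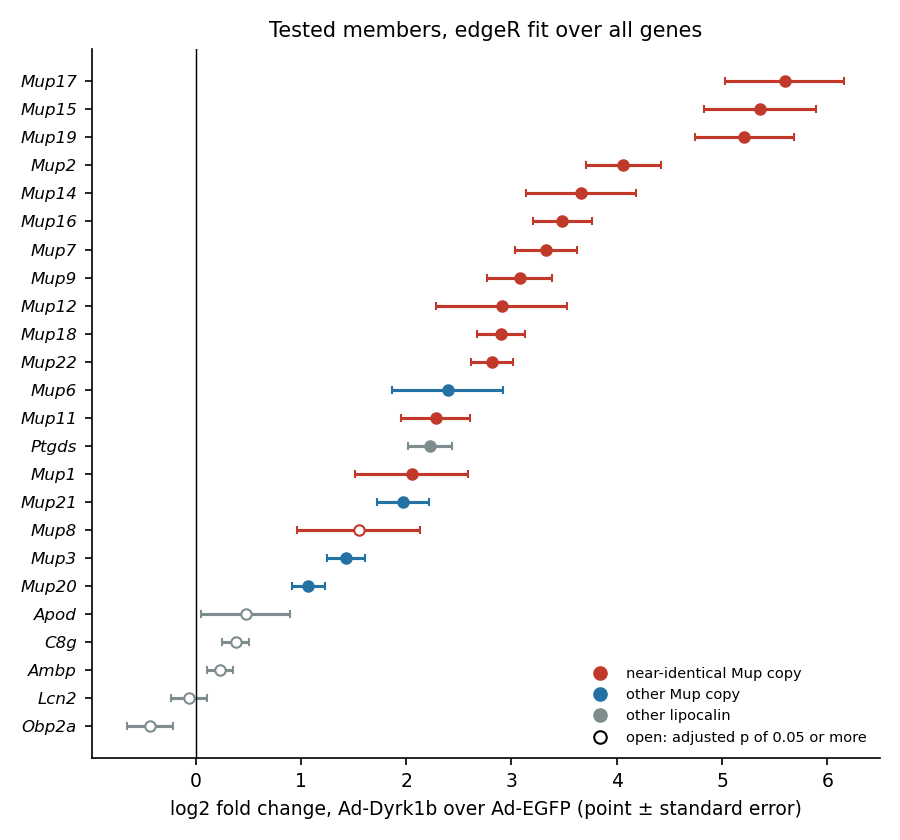
Points are the edgeR log2 fold change (Ad-Dyrk1b over Ad-EGFP, x axis) of the 24 tested genes with bars of 1 standard error, coloured by near-identical Mup copy, other Mup copy or other lipocalin. The 18 Mup genes run from 1.07 for Mup20 to 5.59 for Mup17, and 5 of the 6 other lipocalins lie between -0.43 and 0.48 with open symbols, which mark an adjusted p of 0.05 or more.

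How far a single copy can be measured depends on how much of its transcript is its own. Mup22 and Mup19 had 0.0% of their 100-base stretches absent from the transcripts of every other annotated gene, while the near-identical copy with the most private sequence, Mup1, had 44.3%. Mup17 had 40.6% and Mup18 had 12.9%. The rise was present in copies with much private sequence as well, since Mup3, Mup6 and Mup21 had 95.5 to 100%. Mup20 had 61.2%, and the gene it shared the rest with was the pseudogene Mup-ps19. How the counting treated reads that fit several copies is not stated, and counts of single near-identical copies are uncertain for that reason. The shares of Mup counts held by the near-identical copies and by Mup20 are uncertain for that reason as well.

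**Figure D4:**
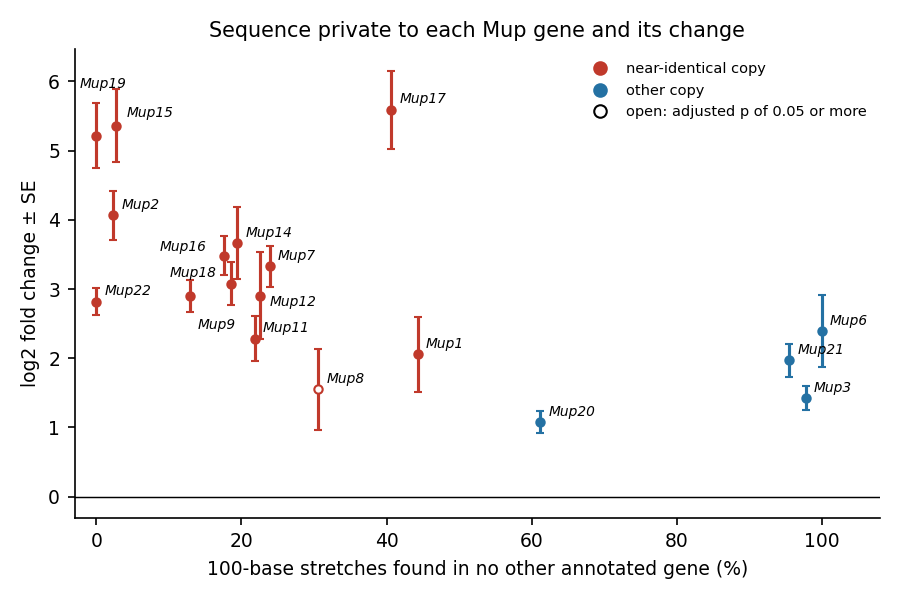
The x axis gives the percentage of a Mup gene's 100-base transcript stretches found in no other annotated gene, and the y axis its log2 fold change with bars of 1 standard error, for the 18 tested Mup genes. Copies with 95.5% or more private sequence (Mup3, Mup6 and Mup21) lie between 1.42 and 2.39, and copies with under 3% (Mup22, Mup19, Mup2 and Mup15) lie between 2.82 and 5.36.

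Near-identical copies kept a common order among the Ad-Dyrk1b libraries. Of the 16, 15 were highest in replicate 2 and 15 were lowest in replicate 3. These copies share sequence and are not independent of each other. Of the 4 other copies with a count, 3 were also highest in replicate 2, among them Mup3 and Mup6, with 97.8 and 100% private sequence. Mup21, with 95.5%, was highest in replicate 3. Dyrk1b did not follow that order, since replicate 1 held its lowest value. Red cell transcripts (Hba-a1, Hba-a2, Hbb-bs, Hbb-bt and Alas2) summed to 883 to 3668 CPM in the Ad-Dyrk1b libraries and 523 to 872 CPM in the Ad-EGFP libraries, with the highest value in Ad-Dyrk1b replicate 3. Their part in the order of the Mup genes was not tested. Without that library the near-identical copies rose by 3.12 and all Mup genes together by 1.57.

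Of the 16 tested genes beside the cluster, 1 was called, against 12.2% of all tested genes called in either direction. Within 500000 bases on either side lay 20 genes, of which 16 were tested. Their log2 fold changes ran from -0.68 for Bspry to 0.70 for Rgs3, and Rgs3, a regulator of G protein signalling, was the only gene called (0.70 ± 0.17, edgeR adjusted p = 0.0186). Both were named after their values were seen.

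RefSeq promoter windows, the 250 bases before the annotated start (GRCm38.p6), were read for 14 Mup genes (not Mup1, Mup5, Mup8, Mup12, Mup13, Mup16, Mup20 or Mup22) and as 16 windows of other lipocalin genes. All 14 Mup windows held the letters TTNNGNAAT on either strand, a pattern for C/EBP factors of the liver, and 0 of the 16 other windows did. Of all 32851 windows of that length, 10.2% held it. The Mup windows are copies of each other and count as few independent observations. They shared 47.6 to 97.6% of aligned bases, but annotated starts are offset between copies, so the windows do not all cover the same region. The lowest value was for Mup2 and Mup7, where the same block with 2 C/EBP matches lies nearer the start in Mup7. The low end therefore does not measure how far the promoters have diverged. Mup4, which had no count in any library, is among the 14 windows with a match. The letters TTCNNNGAA, a pattern for STAT factors, were in 0 of the 14 Mup windows, in 1 of the 16 other windows (Lcn10) and in 7.02% of all windows. The longer HNF1 pattern was in none of the 30 windows and in 0.01% of all. The windows of Mup19, with a large rise, Mup18, an abundant copy, and Mup3, a divergent copy, are shown with C/EBP matches in capitals, read 5′ to 3′ on the minus strand. Their places are chr4:61782225-61782474, chr4:61674095-61674344 and chr4:62087318-62087567. Mup19 had 3 matches and Mup18 and Mup3 had 2 each.
Mup19: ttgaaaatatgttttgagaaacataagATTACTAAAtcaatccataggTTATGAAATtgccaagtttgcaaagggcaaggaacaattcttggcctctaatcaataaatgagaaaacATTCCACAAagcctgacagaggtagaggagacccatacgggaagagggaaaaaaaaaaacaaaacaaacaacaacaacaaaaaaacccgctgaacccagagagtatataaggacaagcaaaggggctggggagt
Mup18: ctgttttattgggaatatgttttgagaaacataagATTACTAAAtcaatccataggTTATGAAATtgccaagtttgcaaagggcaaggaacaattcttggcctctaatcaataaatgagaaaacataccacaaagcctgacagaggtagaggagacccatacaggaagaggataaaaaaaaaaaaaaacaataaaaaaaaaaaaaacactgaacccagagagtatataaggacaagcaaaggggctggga
Mup3: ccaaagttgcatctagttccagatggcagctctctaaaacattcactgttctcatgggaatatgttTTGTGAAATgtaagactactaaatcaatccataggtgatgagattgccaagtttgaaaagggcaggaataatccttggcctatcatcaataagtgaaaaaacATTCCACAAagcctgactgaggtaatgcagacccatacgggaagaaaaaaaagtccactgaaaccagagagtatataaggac

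Among the tested lipocalins that the rule took outside the Mup family, Ptgds was the gene called higher. It stood at 15.9, 20.7 and 15.6 FPKM in Ad-Dyrk1b livers and at 4.09, 4.71 and 3.19 FPKM in Ad-EGFP livers, with no overlap, and rose by 2.23 ± 0.21 (edgeR adjusted p = 4.25e-05). Its transcripts were 100% private at 100 bases.

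Ambp, the most abundant lipocalin after Mup20 in Ad-EGFP livers, stood at 1604, 1565 and 1692 FPKM against 1440, 1311 and 1596 FPKM, with groups that overlapped (0.23 ± 0.12, edgeR adjusted p = 0.243). C8g stood at 94.2, 103 and 101 FPKM against 90.2, 68.4 and 84.6 FPKM. The groups did not overlap, but the difference missed the threshold in edgeR (0.38 ± 0.13, adjusted p = 0.0680), while DESeq2 gave an adjusted p of 0.0467. Of 6 genes whose proteins pair with those of Ambp and C8g, 3 were called higher, against 7.36% of all tested genes. Lower calls numbered 0 (0 at an unadjusted p under 0.05, and 0 with DESeq2), against 4.81% of all tested genes. The median log2 fold change of the 6 was 0.42. C8a and C8b, the other chains of complement C8, rose by 0.92 ± 0.12 and 0.82 ± 0.16, and Itih1, a heavy chain that joins bikunin, rose by 0.70 ± 0.11. Itih2 (0.15 ± 0.11) and the other two heavy chain genes were not called.

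Lcn2 stood at 683, 542 and 560 FPKM in Ad-Dyrk1b livers and at 656, 490 and 824 FPKM in Ad-EGFP livers, with overlapping groups (-0.06 ± 0.17, edgeR adjusted p = 0.838). Without Ad-EGFP replicate 3 the value was 0.12, so its direction was not settled. Of 11 acute phase and NF-kB genes that often accompany Lcn2, 0 were called higher (0 at an unadjusted p under 0.05) and 2 lower. Over all tested genes, 7.36% were called higher and 4.81% lower. The median of the list was -0.27. Saa3, a serum amyloid, fell by 2.75 ± 0.39 and the neutrophil attractant Cxcl1 fell by 0.78 ± 0.17. Neither was called without Ad-Dyrk1b replicate 2, when 0 of the list passed. Neutrophils, another source of Lcn2, were traced by 8 markers. The markers summed to 12.2 to 51.6 CPM in Ad-Dyrk1b and 8.63 to 42.8 CPM in Ad-EGFP libraries, and of the 4 tested none was called (0 of 4 by edgeR, also at an unadjusted p under 0.05).

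Obp2a, named as an odorant-binding protein, stood at 10.3, 10.9 and 6.76 FPKM against 16.0, 11.7 and 12.3 FPKM and did not pass the test (-0.43 ± 0.21, edgeR adjusted p = 0.205), although every Ad-Dyrk1b library lay below every Ad-EGFP library. Apod, an apolipoprotein with the lipocalin fold, had 10 to 19 counts in each library (0.48 ± 0.42, edgeR adjusted p = 0.497). Of the remaining Lcn genes, Lcn12 had 3 counts in 1 Ad-EGFP library and Lcn4 had 1 count in each of 3 libraries, and 7 had 0 counts in all 6. These are genes of the epididymis and the nasal organs for the most part. Receptors that take up lipocalins, Lmbr1l and Slc22a17, were at -0.14 ± 0.17 and -0.19 ± 0.40 and were not called (0 of 2 tested by edgeR, also at an unadjusted p under 0.05). The endocytic receptor Lrp2 did not pass the filter, with 2, 40 and 26 counts in Ad-Dyrk1b and 2, 1 and 0 counts in Ad-EGFP livers. It was called higher by edgeR with no low-count filter and when Ad-Dyrk1b replicate 1 was left out.

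**Figure D5:**
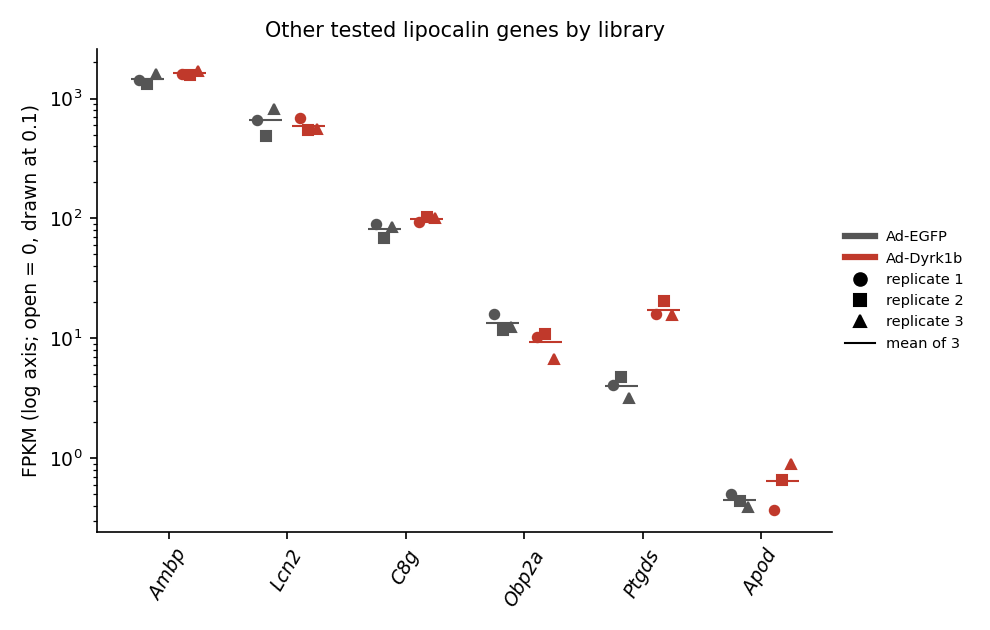
Each point is the FPKM of a library (log axis) for the 6 tested genes of the set outside the Mup family. A line marks the mean of 3. Ad-Dyrk1b points lie above the Ad-EGFP points for Ptgds (15.6 to 20.7 against 3.19 to 4.71) and C8g and below them for Obp2a, and the groups overlap for Ambp, Lcn2 and Apod.

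Secreted proteins with the same fold that the rule did not take were compared as well. Of 5, 3 were called higher, against 7.36% of all tested genes, with a median log2 fold change of 0.87. Lower calls numbered 0 (0 at an unadjusted p under 0.05, and 0 with DESeq2), against 4.81% of all tested genes. Apom, which carries sphingosine-1-phosphate on lipoproteins, rose by 0.87 ± 0.12. The orosomucoid genes Orm3 and Orm2, which are close copies of each other and of Orm1 and therefore uncertain singly, rose by 1.59 ± 0.26 and 1.68 ± 0.30. Orm1 (0.31 ± 0.23) and the remaining gene of the list were not called.

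Growth hormone signalling genes and genes that differ between the sexes in liver were set beside the Mup genes, since Mup transcription is known to depend on both. Of 12 growth hormone signalling genes, edgeR called 0 higher (3 at an unadjusted p under 0.05, and 2 with DESeq2) and 1 lower. Over all tested genes, 7.36% were called higher and 4.81% lower. The median of the list was 0.23. The growth hormone receptor gene Ghr fell by 0.51 ± 0.11 (edgeR adjusted p = 0.0132). The list's count of higher calls was 3 when Ad-Dyrk1b replicate 1 was left out and 1 without replicate 3 of Ad-EGFP, and Ghr lost its call when replicate 1 of either group was left out and with limma-trend on either FPKM scale. The STAT5 targets Cish and Socs2 were at 0.57 ± 0.18 and 0.66 ± 0.25 and the transcription factor Onecut1 at 0.89 ± 0.36, none of them called.

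Of 11 tested male-biased liver genes, 4 were called higher and 1 lower, against 7.36% and 4.81% of all tested genes. The median of the list was 0.75. Elovl3, a fatty acid elongase, rose by 1.60 ± 0.21, the arachidonic acid hydroxylase Cyp4a12b by 1.53 ± 0.23 and Selenbp2 by 1.09 ± 0.22, and complement C6 fell by 0.85 ± 0.14. Without Ad-EGFP replicate 2 the count of higher calls was 2. Of 14 female-biased liver genes, 0 were called lower (0 at an unadjusted p under 0.05, and 0 with DESeq2), against 4.81% of all tested genes. The list had a median of 1.92, and 10 of its genes were called higher, against 7.36% of all tested genes. Among them Cyp2b13 rose by 3.18 ± 0.14, Hao2 by 3.19 ± 0.23, Acot3 by 1.50 ± 0.15 and Sult2a1 by 1.18 ± 0.15. Genes of both lists were called higher alongside the Mup genes, which are themselves male-biased.

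Markers of liver cell types were given as summed CPM. Hepatocytes, the source of Mup transcripts in liver, were marked by 5 genes (Alb, Apoa1, Ttr, Serpina1a and Apob) that summed to 60278 to 74811 CPM in Ad-Dyrk1b and 75357 to 78600 CPM in Ad-EGFP libraries. Every Ad-Dyrk1b sum lay below every Ad-EGFP sum in CPM, though the nearest values were close (74811 against 75357 CPM). CPM leaves out the scaling factors of the edgeR fit, 0.934 to 1.018 in Ad-Dyrk1b and 1.005 to 1.045 in Ad-EGFP libraries. The order of the sums need not hold under that scaling. By edgeR the median log2 fold change of these markers was -0.10, with 0 of 5 called, also at an unadjusted p under 0.05. No marker list had a member lower by the adjusted test. Of 5 bile duct markers 1 was called higher (Spp1), and of 6 Kupffer cell and monocyte markers 1 (Ly6c2). Of 6 T and NK cell markers 1 was called higher (Gzmb), against 7.36% of all tested genes. These genes were named after their values were seen. At an unadjusted p under 0.05 by edgeR, 2, 3 and 4 markers of these lists were higher and 0 lower. The median log2 fold changes of the lists were 0.41, 0.35 and 0.64. Endothelial and stellate lists had none called (0 of 5 and 0 of 7 by edgeR, and 1 each at an unadjusted p under 0.05). The red cell list had 0 of 5 called, also at an unadjusted p under 0.05, with a median of 1.49. Their part in the Mup result was not tested.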

How the data were processed

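RNA-seq of liver was compared between 3 Ad-Dyrk1b and 3 Ad-EGFP libraries, each assigned by the treatment label. The deposited table held whole-number read counts per gene, with no normalization, per the file headers. Per the file headers, the authors added FPKM. FPKM scales each count to gene length and sequencing depth, and the length used differed between libraries for some genes, such as Ghr. A ratio of FPKM can therefore differ from a ratio of counts. The authors' deposited log2 ratio of group means, p-value and adjusted p-value were used only where named. The build was mm10 and DESeq2 was used, per the submitters' processing notes. An aligner, a counting tool, a strand setting or a rule for reads that match several genes was not given in the sources used here.

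Counts were fitted with edgeR 4.0.16 (R 4.3.3; filterByExpr, minimum count 10 and minimum total 15; TMM; robust quasi-likelihood F-test, two-sided) over 13201 genes, with Benjamini-Hochberg adjustment over all of them and a threshold of 0.05. Family sums replaced the rows of their copies in the same fit. Copies were grouped by GENCODE M21 coding sequence (95% identity, single linkage), a step added after the files were seen because the planned grouping by protein sequence was not made. Promoter windows came from RefSeq (GRCm38.p6). All 37 members were found in GENCODE M21 by identifier. Libraries held between 17326516 and 20024888 counts, and 3 counts are 0.150 to 0.173 CPM (a count scaled to 1000000 counts in the library), which covers counting error only.

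Every member with a count was named, with up to 4 genes of each context list by smallest p. Markers and neighbouring genes named beyond this rule are marked as such. The members and lists were chosen with earlier results of these data known. Alternatives were DESeq2 1.42.0, scaling by library totals, scaling without the members, no low-count filter, limma-voom and limma-trend (limma 3.58.1) on log2(FPKM + 1) and log2(FPKM + 0.1), a replicate block, and leaving out each library.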

Additional observations from a re-analysis of the deposited data

How the results depend on the processing

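Of the 18 genes called, 15 were called in all 14 alternatives run, and 241 of their 252 values kept their direction and side of the threshold. None took the other direction. Mup1, Mup14 and Mup6 lost the call in some fits, with the values given above. Mup8 passed with DESeq2 (adjusted p = 0.0433), with the replicate block (adjusted p = 0.0490) and without Ad-Dyrk1b replicate 3, and C8g with DESeq2. Between 16 and 20 genes of the set were called higher and 0 lower. The family sum ranged from 1.26 to 1.57 and the near-identical sum, outside the 90% grouping, from 2.67 to 3.12. With the replicate block, the family sum was 1.44 and 19 genes were called higher. The labels do not state that the numbers pair samples, so no pairing was assumed in the main fit. Same-numbered libraries of the groups correlated in their deviations at 0.041, 0.197 and 0.113. Ad-Dyrk1b replicates 2 and 3 correlated best with the same number, and replicate 1 with Ad-EGFP replicate 3 (0.096). These values do not settle whether the samples were paired. Lcn2, which was not called, ranged from -0.24 to 0.12 when 1 library was left out. Over all genes, 972 were called higher and 635 lower, against 695 and 1051 with library totals and 566 and 712 with limma-trend on log2(FPKM + 1). Library totals leave out the TMM factors, 0.934 to 1.018 in Ad-Dyrk1b and 1.005 to 1.045 in Ad-EGFP libraries. The median of all genes was then -0.0896. Why the factors differ between the groups was not tested. On log2(FPKM + 1) the values of scarce copies were smaller by construction, 1.09 for Mup12 and 1.12 for Mup6. Copies with few control counts are limited by depth.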
